A study of Mus musculus with 18 samples.

Results

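The genes described here are 6 mouse genes for proteins that set how long cytokine mRNAs last: Zfp36, Zfp36l1, Zfp36l2, Zc3h12a, Zc3h12c and Elavl1. They were taken by gene symbol from the deposited gene table, 6 of 45777 genes. All 6 passed the filter on low counts, which left 14650 genes for testing. Their mRNA was sequenced from Raw264.7, a macrophage-like line of mouse origin labelled as wild type, after 6 h in serum-free DMEM. Every treated culture belongs to this 1 line, so that the values describe the line and not primary macrophages. The 6 groups had 3 libraries each. SB24011 was given alone at 20 uM. cGAMP was given at 20 uM, either alone, together with SB24011 at 10 or 20 uM, or together with 7a at 20 uM. DMSO served as control. The cyclic dinucleotide cGAMP is the natural ligand of STING, an adaptor of innate immunity. The title of the series describes SB24011 as an inhibitor of STING binding to TRIM29, and its design text describes 7a as a negative analog. A group with 7a alone was not analysed here.

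Many cytokine mRNAs carry AU-rich elements, runs of the pentamer ATTTA in the letters of the gene, in the 3' untranslated region. Tristetraprolin, the product of Zfp36, and its relatives from Zfp36l1 and Zfp36l2 bind these elements through a pair of CCCH zinc fingers and recruit the CCR4-NOT deadenylase, which shortens the poly(A) tail and starts decay. Regnase-1, the product of Zc3h12a, is an endoribonuclease that cuts stem-loops in the 3' untranslated regions of mRNAs such as Il6, and Regnase-3, the product of Zc3h12c, belongs to the same family. HuR, the product of Elavl1, binds AU-rich and U-rich stretches and in many mRNAs delays decay. In macrophages tristetraprolin is known above all for limiting Tnf, and its own mRNA carries AU-rich elements. The values below are mRNA levels. Decay rates, proteins and phosphorylation were not measured.

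The AU-rich stretches of the members' own mRNAs are shown first, because they are the letters that several of these proteins are known to read. For each gene whose 3' untranslated region holds the longer heptamer TATTTAT, the 27 bases that include a heptamer and hold the most ATTTA pentamers (the first such stretch, where several tie) were read from GRCm38 in the direction of the mRNA, with the pentamers in capitals. The region of Zc3h12a holds 3 pentamers and no heptamer, so that no stretch of it is shown. Tnf, the best known target of tristetraprolin, is given for comparison.
Zfp36, chr7:28376963-28376989: gccctttATTTAtgacgactttATTTA
Zfp36l1, chr12:80108433-80108459: ttATTTAacttatcaaaacgtATTTAt
Zfp36l2, chr17:84184925-84184951: atatgaaaaactATTTAacttATTTAt
Zc3h12c, chr9:52114873-52114899: cttctttgtgctataatcattATTTAt
Elavl1, chr8:4285778-4285804: ATTTATTTATTTATTTAtttttATTTA
Tnf, chr17:35199679-35199705: ATTTAttATTTATTTAttATTTATTTA
All 6 members and Tnf lie on the minus strand of the reference. The Elavl1 window holds 5 pentamers, as many as the Tnf window, while the Zfp36, Zfp36l1 and Zfp36l2 windows hold 2 each and the Zc3h12c window holds 1. The heptamer occurred 3 times in the 774 bases of the Zfp36 region, where 20% of regions of similar length hold any. It occurred 3 times each in Zfp36l1 (1835 bases, 39.5% of regions of similar length) and Zfp36l2 (1822 bases, 39.1%). It occurred 8 times in Elavl1 (4218 bases, 62.2%) and 2 times in Zc3h12c (4062 bases, 62.1%), where the median region of similar length holds 1. It did not occur in the 856 bases of Zc3h12a (21.2%). The Tnf region held 8 in 764 bases. Over 19589 annotated 3' untranslated regions of at least 100 bases, 27.9% held the heptamer. A match is a run of letters and not a measured binding site.

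Promoters are shown for Zfp36 and Zc3h12a, the member with the largest change with cGAMP and the one with the largest change with SB24011 on cGAMP. RefSeq start sites on GRCm38.p6 gave a window of 300 bases, 250 before and 50 after the start, for 5 of the 6 members. Both strands were searched for the NF-kB consensus, for the ISRE consensus, for TGANTCA (AP-1), TTCNNNGAA (GAS, bound by STAT dimers), TGATGNAA (ATF4) and GGGCGG (Sp1). The NF-kB and ISRE forms replaced narrower letters after a first search had been seen, in which those letters were in no member's window. Matches are in capitals and none of those shown overlap.
Zfp36, chr7:28379179-28379478: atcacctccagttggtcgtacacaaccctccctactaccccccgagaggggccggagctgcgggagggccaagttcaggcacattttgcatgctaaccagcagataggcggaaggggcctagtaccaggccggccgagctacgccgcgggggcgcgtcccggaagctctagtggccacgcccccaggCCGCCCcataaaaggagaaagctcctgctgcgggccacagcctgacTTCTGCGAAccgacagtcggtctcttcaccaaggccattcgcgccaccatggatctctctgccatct
Zc3h12a, chr4:125127832-125128131: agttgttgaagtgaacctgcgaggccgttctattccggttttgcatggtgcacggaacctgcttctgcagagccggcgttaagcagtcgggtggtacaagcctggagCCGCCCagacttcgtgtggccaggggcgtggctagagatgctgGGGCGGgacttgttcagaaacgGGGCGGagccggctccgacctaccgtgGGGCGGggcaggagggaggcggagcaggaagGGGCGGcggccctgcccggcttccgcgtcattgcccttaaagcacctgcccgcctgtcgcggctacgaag
The Zfp36 window held 1 GAS match, which began 17 bases before the start site, and 1 GGGCGG on the opposite strand. The GAS letters occur in 8.3% of 32851 promoters of the same length and GGGCGG in 35.7%. The Zc3h12a window held GGGCGG 5 times and no other match. Among the windows not printed, that of Zfp36l1 held 1 TGANTCA, found in 7.81% of promoters, 1 of 2 Zc3h12c windows held 1 GGGCGG and 1 NF-kB match, found in 8.46% of promoters, and that of Elavl1 held no match. The ISRE consensus (0.959% of promoters) and the ATF4 letters (3.97%) were in no member's window. Absence of these letters says nothing of the factors, since sites can lie outside 300 bases or depart from the letters.

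Library totals ran from 45165780 to 65810517 counts. Whether replicates came from separate cultures is not stated in the labels, so p-values measure the spread between libraries, which may be technical. All 8 macrophage markers were detected in every library, from 17.1 CPM for Fcgr1 upward, while the T cell, B cell, epithelial, fibroblast and neutrophil markers and Flt3 stayed at or under 0.415 CPM and Zbtb46, a dendritic cell marker, lay between 0.753 and 1.83 CPM. Levels in CPM were brought to 1 library size with TMM, a correction for differences in library composition. Because cGAMP and DMSO libraries differ in composition, this scaling matters: with library size alone, the median log2 difference of all genes for cGAMP against DMSO was -0.19, against -0.06 with TMM. In RNA from whole cultures, fewer cells expressing a gene and less of its RNA per cell cannot be told apart. Where replicates are listed they are replicates 1, 2 and 3. The labels give only a number for each library, from 1 to 6, 21 to 26 or 31 to 36. Grouping these numbers into library sets 1, 2 and 3 was done here. The labels do not say what the numbers stand for.

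On the scale of FPKM, which corrects for transcript length and so allows genes to be set beside each other, Zfp36 was the most abundant member in the cGAMP-treated groups. It averaged 106 ± 23.5 FPKM with cGAMP, against 36.2 ± 5.04 FPKM in DMSO (SD, n = 3 each), where Zfp36l2 lay close to it at 33.7 ± 2.16 FPKM. Elavl1 averaged 19.7 ± 0.267 FPKM with cGAMP and 21.9 ± 0.570 FPKM in DMSO. Zfp36l1 (10.6 ± 0.931 FPKM with cGAMP and 8.75 ± 1.104 FPKM in DMSO) and Zc3h12c (9.38 ± 1.24 FPKM with cGAMP and 7.62 ± 0.407 FPKM in DMSO) lay below these. Zc3h12a had the lowest level in these groups, 4.09 ± 0.580 FPKM with cGAMP and 3.13 ± 0.603 FPKM in DMSO. With SB24011 alone the libraries of Zfp36 (28.7 to 35.3 FPKM) and Zfp36l2 (28.7 to 31.9 FPKM) overlapped, whereas with cGAMP every Zfp36 library (82.6 to 130 FPKM) was above every Zfp36l2 library (34.3 to 39.9 FPKM).

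**Figure D1:**
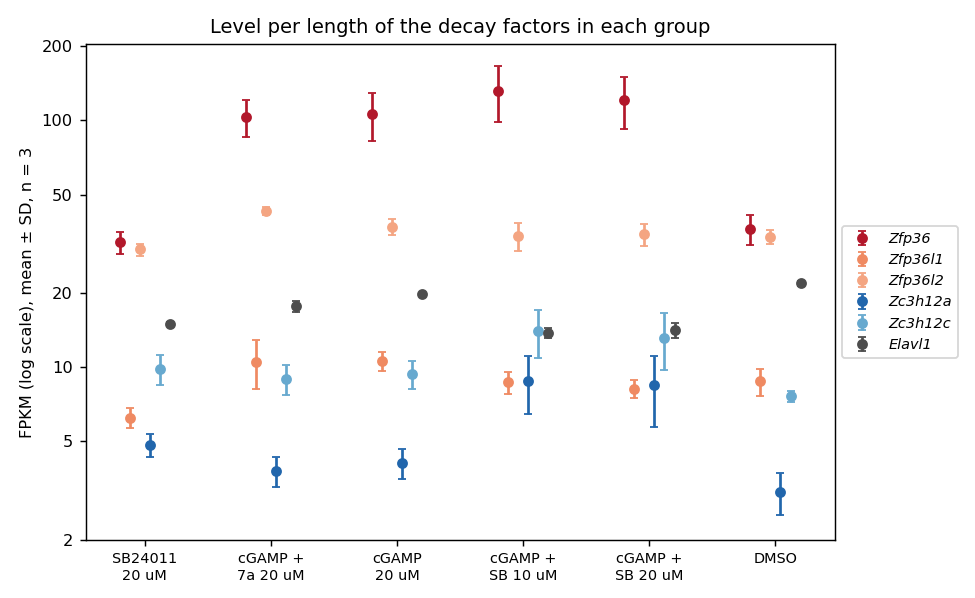
Mean FPKM with SD over 3 libraries (log axis) of the 6 members, by color, in the 6 treatment groups. Zfp36 stands above the other members in every group with cGAMP and beside Zfp36l2 in DMSO and with SB24011 alone, while Zc3h12a is the lowest member except where cGAMP and SB24011 were combined, where it overlaps Zfp36l1.

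Zfp36, the gene of tristetraprolin, rose 3.20-fold with cGAMP. It did not pass the test for SB24011 in either setting, save at 10 uM on cGAMP with the library set as a block. Its 3 libraries had 278, 179 and 225 CPM with cGAMP, against 80.1, 69.2 and 64.2 CPM in DMSO. The lowest cGAMP library was thus above the highest DMSO library by more than the whole range of the DMSO libraries. The log2 difference was 1.68 ± 0.22 (SE), adjusted p = 3.14e-05 by edgeR's quasi-likelihood test with Benjamini-Hochberg adjustment over all genes tested. The call held under every alternative scaling, filter, model and left-out library that was run, with log2 differences from 1.51 to 1.82 when single libraries were left out.

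SB24011 alone left Zfp36 at 67.7, 55.3 and 61.7 CPM, a range that overlaps that of DMSO. The log2 difference for SB24011 alone against DMSO was -0.21 ± 0.22, adjusted p = 0.463, with a 95% interval from -0.67 to 0.25. With cGAMP, the levels were 369, 242 and 234 CPM at 10 uM SB24011 and 343, 227 and 216 CPM at 20 uM. Replicate 1 was the high library in both groups, and both overlapped cGAMP alone. The log2 difference against cGAMP alone was 0.31 ± 0.21 at 10 uM (adjusted p = 0.283, 95% interval -0.15 to 0.77) and 0.20 ± 0.21 at 20 uM (adjusted p = 0.480, interval -0.25 to 0.66). An effect of SB24011 on Zfp36 within these bounds was not detectable in this fit and is not shown to be absent. With the library set as a block in edgeR the difference on cGAMP was 0.30 at 10 uM and passed (adjusted p = 0.0165). At 20 uM it was 0.20 and did not (adjusted p = 0.0974). Neither comparison met the check for pairing by library set. Without combination replicate 1 the difference at 10 uM was 0.06 (adjusted p = 0.850). In cells with SB24011 the rise with cGAMP was 4.26-fold (cGAMP with 20 uM SB24011 against SB24011 alone, log2 difference 2.09 ± 0.22, adjusted p = 5.3e-06). The interaction subtracts the log2 difference that SB24011 made in DMSO-treated cells from the one it made in cGAMP-treated cells. It was 0.41 ± 0.30 and did not pass (adjusted p = 0.782).

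Zfp36l1 encodes a tristetraprolin relative that drives decay of AU-rich mRNAs in many cell types. It had 38.8, 35.2 and 41.4 CPM with cGAMP, against 31.3, 25.5 and 30.5 CPM in DMSO, without overlap. It rose by 0.40 ± 0.13 on the log2 scale with cGAMP (adjusted p = 0.0248) and moved the other way with SB24011. SB24011 alone gave 20.5, 18.3 and 22.1 CPM, all below the lowest DMSO library. That was a log2 difference of -0.52 ± 0.13 against DMSO (adjusted p = 0.00456). On cGAMP the levels were 33.5, 27.6 and 32.8 CPM at 10 uM SB24011 and 28.1, 29.6 and 31.4 CPM at 20 uM, both below all cGAMP libraries and overlapping DMSO. The fall against cGAMP alone passed at 20 uM (-0.37 ± 0.13, adjusted p = 0.0322) but not at 10 uM (-0.30 ± 0.13, adjusted p = 0.0860). The 10 uM fall did pass with only the groups compared in the fit (adjusted p = 0.0262) and with the library set as a block (adjusted p = 0.00864). The difference between the doses was -0.07 ± 0.13 with an interval from -0.36 to 0.21.

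The calls for Zfp36l1 with cGAMP against DMSO and with 20 uM SB24011 on cGAMP were close to the threshold, while that with SB24011 alone held with each single library left out (adjusted p from 0.00315 to 0.0262). For cGAMP, adjusted p was 0.111 without DMSO replicate 2, 0.0632 without cGAMP replicate 1, 0.0904 without cGAMP replicate 3 and 0.119 with library size alone. On the deposited FPKM it was 0.118 with limma, a linear model, on log2(FPKM + 1) and 0.114 on log2(FPKM + 0.1). With set 1 left out the calls ended for cGAMP (0.109), SB24011 alone (0.0823) and 20 uM SB24011 on cGAMP (0.214). For 20 uM SB24011 on cGAMP, adjusted p was 0.0611 with library size alone, 0.0726 and 0.113 without cGAMP replicates 1 and 3, and 0.0994 and 0.0702 without replicates 1 and 2 of the combination of cGAMP with 20 uM SB24011.

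Zfp36l2, the third gene of the family, was the least variable of the 3 between treatments. Its levels were 172, 160.4 and 147 CPM with cGAMP, against 139, 129.8 and 130.1 CPM in DMSO, without overlap but with a small step. It rose by 0.27 ± 0.098 on the log2 scale with cGAMP (adjusted p = 0.0426). Leaving out any 1 of the DMSO libraries or of cGAMP replicates 1 and 2 ended this call (adjusted p from 0.0551 to 0.168), as did library size alone and the absence of a filter on low counts. So did leaving out library set 1 (0.136) and limma on log2(FPKM + 1) (0.262) and log2(FPKM + 0.1) (0.257). SB24011 alone gave 123, 113 and 111 CPM, all below DMSO, with a log2 difference of -0.20 ± 0.098 that did not pass (adjusted p = 0.106). This pair of groups meets the check for pairing by library set, and with the set as a block the difference was -0.20 and passed (adjusted p = 0.0106). On cGAMP the levels were 161, 152 and 121 CPM at 10 uM SB24011 and 163, 158 and 128 CPM at 20 uM, both overlapping cGAMP alone. Neither dose passed (-0.14 ± 0.098, adjusted p = 0.279, and -0.10 ± 0.098, adjusted p = 0.459).

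**Figure D2:**
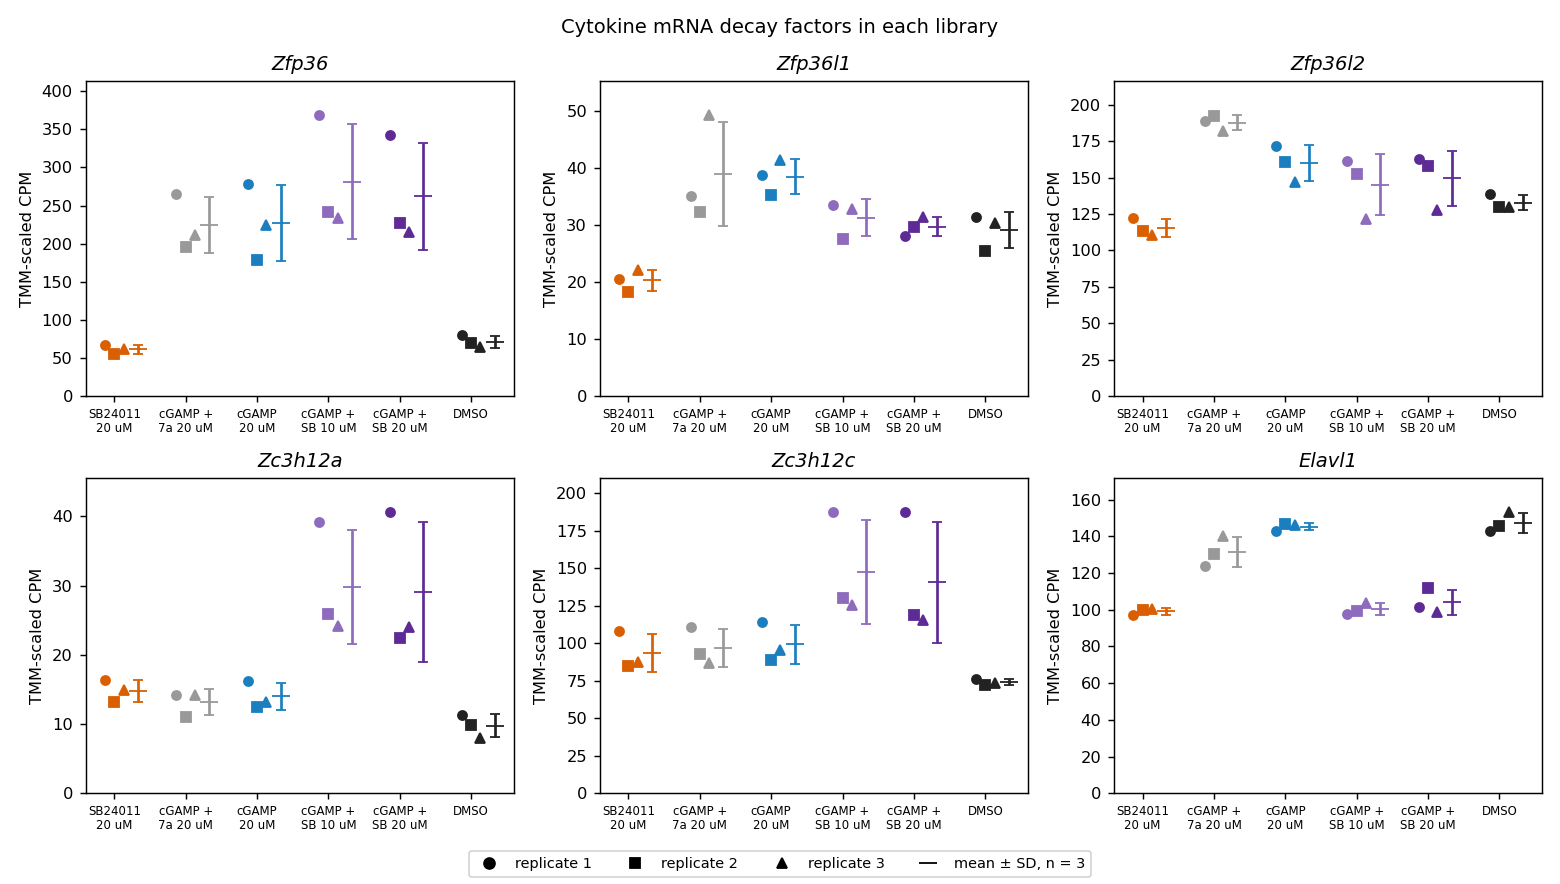
TMM-scaled CPM of each member (1 panel per gene, axis from 0) in the 6 groups, with a point for each library, its shape giving the replicate, and beside them the mean with SD of 3 libraries. Zfp36 separates into groups with and without cGAMP, Zc3h12a and Zc3h12c are highest where cGAMP and SB24011 were combined, and Elavl1 is lowest in the 3 groups with SB24011.

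Zc3h12a, the gene of Regnase-1, was the member that SB24011 raised most on cGAMP. It had 16.2, 12.5 and 13.2 CPM with cGAMP, against 11.4, 9.90 and 8.04 CPM in DMSO. These do not overlap, but the log2 difference of 0.52 ± 0.23 did not pass (adjusted p = 0.101). With cGAMP the gene passed under DESeq2 (0.0389), the library set as a block (0.00562), only the groups compared (0.0128) and without library set 1 (0.0147). It did not with any single library left out (0.087 to 0.303). SB24011 alone gave 16.4, 13.2 and 14.9 CPM, also above all DMSO libraries, with a log2 difference of 0.60 ± 0.23 (adjusted p = 0.0466). This call turned on the fit. It ended without DMSO replicate 2 (0.0960) or 3 (0.158), without SB24011 replicate 1 (0.132), 2 (0.0511) or 3 (0.0932), and without a filter on low counts (0.0821). It held with the library set as a block (0.00119), with only the groups compared (0.00357), without library set 1 (0.0028) and with DESeq2 (0.0112). With both agents Zc3h12a reached 39.2, 25.9 and 24.2 CPM at 10 uM SB24011 and 40.7, 22.4 and 24.0 CPM at 20 uM.

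Every library with both agents was above every library of the other groups. Against cGAMP alone Zc3h12a rose 2.12-fold at 10 uM (log2 difference 1.09 ± 0.23, adjusted p = 0.00146) and 2.07-fold at 20 uM (1.05 ± 0.23, adjusted p = 0.00170). Both calls held under every alternative run. Combination replicate 1 was the highest at each dose, and without it the log2 difference was 0.84 at 10 uM (adjusted p = 0.00823) and 0.73 at 20 uM (adjusted p = 0.00778). The doses did not differ detectably (-0.04 ± 0.22, interval -0.51 to 0.44). Against SB24011 alone, cGAMP with 20 uM SB24011 was higher by 0.97 ± 0.23 (adjusted p = 0.00441). The interaction was 0.45 ± 0.32 (adjusted p = 0.767), so that the sum of the separate log2 changes was not distinguishable from the change with both agents.

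Zc3h12c, the gene of Regnase-3, was likewise highest where cGAMP and SB24011 were combined, at smaller steps. It had 114, 89.1 and 95.1 CPM with cGAMP, against 76.2, 72.4 and 73.2 CPM in DMSO, without overlap. The log2 difference of 0.43 ± 0.19 did not pass (adjusted p = 0.0950). With cGAMP the gene passed under DESeq2 (0.0343), the library set as a block (0.00149), only the groups compared (0.0022) and without library set 1 (0.000946). It did not with any single library left out (0.0921 to 0.299). SB24011 alone gave 108, 85.1 and 87.1 CPM, also above all DMSO libraries, and a log2 difference of 0.34 ± 0.19 that did not pass (adjusted p = 0.162). With the library set as a block that difference was 0.32 and passed (adjusted p = 0.00670). With both agents the levels were 188, 129.9 and 125 CPM at 10 uM SB24011 and 187, 119 and 116 CPM at 20 uM, all above the cGAMP libraries.

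Zc3h12c rose against cGAMP alone by 0.57 ± 0.19 on the log2 scale at 10 uM (adjusted p = 0.0259) and by 0.50 ± 0.19 at 20 uM (adjusted p = 0.0448). Without combination replicate 1 the log2 difference was 0.36 at 10 uM (adjusted p = 0.149) and 0.24 at 20 uM (adjusted p = 0.276), and without cGAMP replicates 2 and 3 adjusted p was 0.0932 and 0.0785 at 10 uM and 0.142 and 0.117 at 20 uM. At 20 uM the call also ended with DESeq2's size factors in edgeR (0.0508), without a filter (0.0783) and with only the groups compared in the fit (0.0822). Zc3h12c overlaps 1 annotated gene, Mir6244, on the map; the other members overlap none.

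Elavl1, the gene of HuR, varied little between replicates, with a coefficient of variation of at most 6.65% in any group, and fell with SB24011 against both DMSO and cGAMP. It had 142.9, 146 and 146 CPM with cGAMP, against 142.9, 146 and 153 CPM in DMSO, which overlap. The log2 difference with cGAMP was -0.02 ± 0.055 (adjusted p = 0.820, interval -0.14 to 0.10). This value turns on the scaling: it was 0.00 with DESeq2's size factors in edgeR, and -0.15 (adjusted p = 0.0384) with library size alone, where the median gene also shifted down. SB24011 alone gave 96.8, 99.7 and 100.4 CPM, far below DMSO, and Elavl1 fell by 0.57 on the log2 scale (SE 0.055, adjusted p = 3.41e-07). On cGAMP the levels were 97.8, 99.4 and 103.9 CPM at 10 uM SB24011 and 101, 112 and 98.9 CPM at 20 uM.

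Against cGAMP alone Elavl1 fell by 0.53 at 10 uM (SE 0.055, adjusted p = 1.29e-06) and by 0.48 at 20 uM (SE 0.055, adjusted p = 2.99e-06). These calls held under every alternative run, from -0.56 to -0.51 at 10 uM and from -0.54 to -0.44 at 20 uM with single libraries left out. The difference between the doses was 0.05 ± 0.055 (interval -0.06 to 0.17). In cells with SB24011, the log2 difference of Elavl1 with cGAMP was 0.07 ± 0.055 (adjusted p = 0.394), which becomes -0.10 with library size alone, and the interaction was 0.09 ± 0.078 (adjusted p = 0.824).

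**Figure D3:**
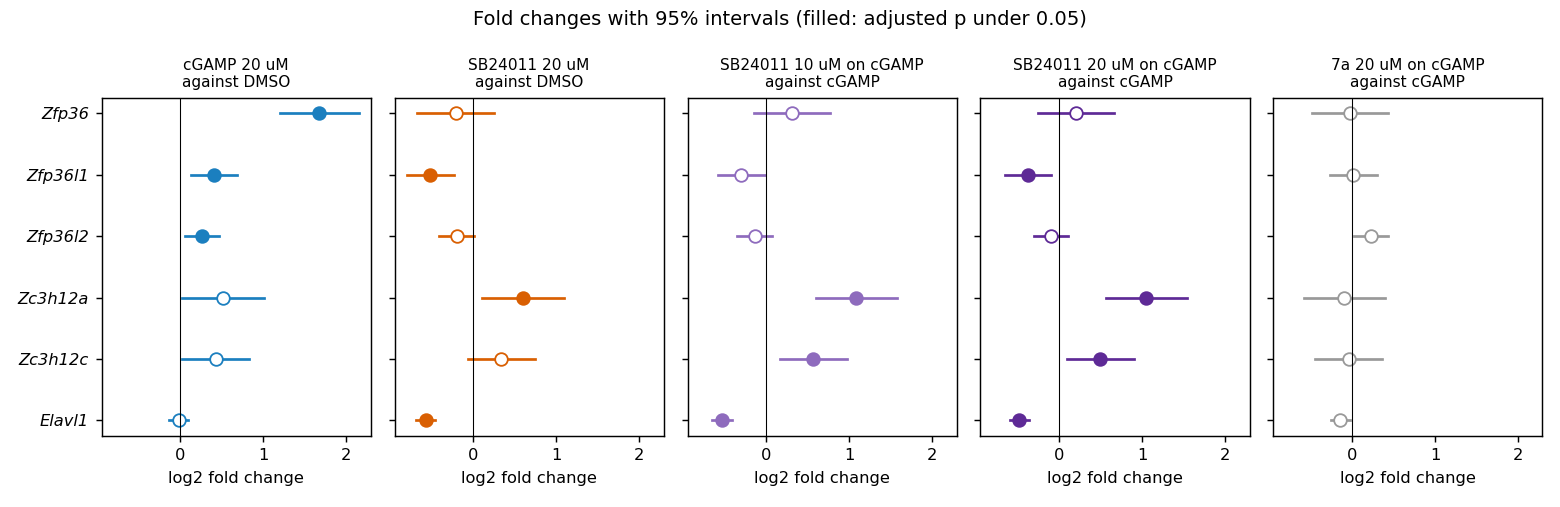
Log2 fold changes (x axis) of the 6 members in 5 comparisons, with 95% intervals from edgeR. Filled points passed an adjusted p under 0.05 over all 14650 genes: Zfp36 is farthest right with cGAMP, Zc3h12a with SB24011 on cGAMP, Elavl1 lies left of 0 wherever SB24011 was added, and no point is filled for 7a.

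The members called are set here beside all genes tested. With cGAMP against DMSO 3 of 6 members were called, all higher, where 35.4% of genes tested were called, 15.6% higher and 19.8% lower. The groups did not overlap for 5 members and for 47.5% of genes. With library size alone in place of TMM, 1706 genes were higher and 5149 lower, against 2290 and 2903. Of the members, 1 (Zfp36) was then higher and 1 (Elavl1) lower, as with limma on the deposited FPKM. Without a filter on low counts 2 members were called, both higher. For SB24011 alone against DMSO 1 member was higher and 2 were lower, where 44.6% of genes were called, 20.4% higher and 24.3% lower. The groups did not overlap for 5 members and 56.6% of genes, and library size alone gave 3624 genes higher and 2685 lower, against 2988 and 3553.

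On cGAMP, 20 uM SB24011 gave 2 members higher and 2 lower, where 42.3% of genes were called, 21.7% higher and 20.6% lower, and the groups did not overlap for 4 members and 49.5% of genes. At 10 uM, 2 members were higher and 1 lower, where 39% of genes were called, 19.9% higher and 19.1% lower, with no overlap for 4 members and 50.5% of genes. Between the doses no member and 0% of genes were called by edgeR, and none by DESeq2, with 0 members and 404 genes at an unadjusted p under 0.05. The doses did not overlap for 0 members and 7.04% of genes. In SB24011-treated cells cGAMP raised 5 of 6 members, where 27.4% of genes were called, 15% higher and 12.4% lower, with no overlap for 5 members and 40.2% of genes. Beside Zfp36 and Zc3h12a these were Zfp36l1 (0.55 ± 0.13, adjusted p = 0.00506), Zfp36l2 (0.37 ± 0.098, adjusted p = 0.00837) and Zc3h12c (0.59 ± 0.19, adjusted p = 0.0301). Without combination replicate 1 adjusted p was 0.0516 for Zfp36l2 and 0.191 for Zc3h12c. Without SB24011 replicates 2 and 3 it was 0.108 and 0.101 for Zc3h12c, and without library set 1 it was 0.0576 for Zfp36l1. Library size alone left 3 members called there, with 1521 genes higher and 4760 lower, against 2194 and 1814 under TMM. For the interaction no member was called, nor passed an unadjusted p under 0.05, where edgeR called 0.369% of genes, 0.246% higher and 0.123% lower, and DESeq2 no member.

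SB24011 and 7a were compared at 20 uM each, on 20 uM cGAMP and at the same time. The structural change between them is given by the labels only as a negative analog. With 7a the levels lay near those with cGAMP alone: Zfp36 had 266, 196 and 211 CPM, Zc3h12a had 14.2, 11.03 and 14.2 CPM, and Zc3h12c had 111, 92.5 and 86.5 CPM. These ranges overlap cGAMP alone for each of the 3 genes. Zfp36l1 had 35.0, 32.3 and 49.3 CPM, with replicate 3 the highest library of the gene in any group. Zfp36l2 had 189, 192 and 182 CPM, above all cGAMP libraries, and Elavl1 had 123.8, 130.5 and 140.2 CPM, below all of them.

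No member passed for 7a on cGAMP, where 0% of genes were called by edgeR. The groups did not overlap for 2 members and 12.7% of genes. At an unadjusted p under 0.05 there were 2 members and 1208 genes (8.25%), and DESeq2 called 38 genes and edgeR with the library set as a block 8. Without 7a replicate 3, edgeR called 48 genes. The 2 members were Zfp36l2 (log2 difference 0.23 ± 0.097, adjusted p = 0.551, interval 0.03 to 0.44) and Elavl1 (-0.14 ± 0.055, adjusted p = 0.525, interval -0.26 to -0.03). For the others the intervals against cGAMP were -0.48 to 0.44 for Zfp36, -0.26 to 0.30 for Zfp36l1, -0.58 to 0.40 for Zc3h12a and -0.44 to 0.36 for Zc3h12c. Changes within these intervals could not be detected, which does not show that 7a left these genes as they were with cGAMP alone.

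Set directly against each other, SB24011 and 7a differed for 5 of 6 members. Of all genes 36.4% were called, 19.7% higher and 16.7% lower, and the groups did not overlap for 5 members and 42.9% of genes. Zc3h12a was higher with SB24011 by 1.14 ± 0.23 on the log2 scale (adjusted p = 0.00112) and Zc3h12c by 0.54 ± 0.19 (adjusted p = 0.0356). Elavl1 was lower with SB24011 by a log2 difference of -0.34 ± 0.055 (adjusted p = 1.39e-04), Zfp36l1 by -0.39 ± 0.13 (adjusted p = 0.0293) and Zfp36l2 by -0.33 ± 0.098 (adjusted p = 0.0136). Zfp36 did not pass (0.23 ± 0.21, adjusted p = 0.460, interval -0.23 to 0.68). The Zc3h12a and Elavl1 calls held under every alternative run. Those of Zfp36l1, Zfp36l2 and Zc3h12c did not: without 7a replicate 3 adjusted p was 0.236 for Zfp36l1 and 0.127 for Zc3h12c, without combination replicate 1 it was 0.0935 and 0.217, and without combination replicate 3 it was 0.0731 for Zfp36l2.

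Among the levels of each member in order, neighbouring groups mostly overlapped. For Zfp36 the 4 groups with cGAMP overlapped their neighbours and stood apart from DMSO and SB24011 alone, which overlapped each other. For Zc3h12a the order from low to high was DMSO, cGAMP with 7a, cGAMP, SB24011 alone and the combinations, with a gap only below the combinations. For Zc3h12c gaps lay above DMSO and below the combinations. For Elavl1 the 3 groups with SB24011 overlapped, then came 7a on cGAMP, and then cGAMP and DMSO, which overlapped. For Zfp36l1 SB24011 alone stood lowest, apart from all other groups, with a further gap between the combinations and cGAMP alone. The group with 7a on cGAMP, from 32.3 CPM, overlapped the 10 uM combination, up to 33.5 CPM. For Zfp36l2 SB24011 alone stood lowest and 7a on cGAMP highest.

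A shift between library sets ran through 3 members. Replicate 1 was the highest library in 6 of 6 groups for Zfp36, Zc3h12a and Zc3h12c, in 5 for Zfp36l2, in 2 for Zfp36l1 and in none for Elavl1. On average replicate 1 lay 0.289 above its group mean on the log2 scale for Zfp36, 0.282 for Zc3h12a and 0.249 for Zc3h12c. After removing group means, the 18 libraries gave r = 0.919 between Zfp36 and Zc3h12a, 0.932 between Zfp36 and Zc3h12c and 0.868 between Zc3h12a and Zc3h12c, values that share libraries and their scaling. Without library set 1 the log2 difference of Zc3h12a with 20 uM SB24011 on cGAMP was 0.85 (adjusted p = 5.32e-04).

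Ratios within a library do not depend on the scaling between libraries. The ratio of Zfp36 to Elavl1 FPKM, chosen after the values were seen, was 5.37 ± 1.24 with cGAMP, against 1.66 ± 0.242 in DMSO (SD, n = 3 each). With cGAMP and SB24011 it was 9.65 ± 2.85 at 10 uM and 8.68 ± 2.55 at 20 uM, with SB24011 alone 2.13 ± 0.248 and with cGAMP and 7a 5.87 ± 1.27. The lowest combination library, at 6.95, was above the highest library of cGAMP alone, at 6.66, by a small margin. Replicate 1 of cGAMP with 7a, at 7.34, was above that combination library. The ratio of Zc3h12a to Zc3h12c was 0.621 ± 0.0247 with cGAMP and 10 uM SB24011 and 0.635 ± 0.0441 with 20 uM, against 0.436 ± 0.0054 with cGAMP alone. It was 0.493 ± 0.0327 with SB24011 alone, 0.426 ± 0.0736 with cGAMP and 7a and 0.409 ± 0.0620 in DMSO.

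Across the 18 libraries, Zc3h12a and Zc3h12c had the closest profiles of any 2 members, with r = 0.952 on the log2 CPM scale, while Zc3h12a and Elavl1 ran opposite with r = -0.73. These correlations describe 18 libraries in 6 groups and carry no test. Of the 9313 genes that averaged 5 CPM or more, Mid1 (r = 0.992), Irf5 (0.990), Tlr7 (0.988) and Mid1-ps1 (0.988) had profiles most like Zfp36. Mid1 and Mid1-ps1 may share reads, since a pseudogene can resemble its parent gene. Irf5, an interferon regulatory factor, had a mean of 252 CPM with cGAMP, against 109 CPM in DMSO. The genes closest to Zc3h12a were Bcl2a1d (0.981), Ralgds (0.965), Bcl3 (0.958) and Nfkbiz (0.957), and those closest to Zc3h12c were Ralgds (0.982), Lcp2 (0.972), Bcl2a1d (0.963) and Bcl3 (0.961). Bcl2a1d, one of a family of near-identical copies, is uncertain for the same reason. Elavl1 was closest to Rbbp4 (0.982), Ddx46 (0.981), Rbbp7 (0.979) and Tuba1b (0.9752). Zfp36l1 was closest to Npl (0.941), Cgas (0.932), Sdad1 (0.929) and Hmgn5 (0.928), and Zfp36l2 to Bcl9 (0.932), Slc12a7 (0.927), Sik3 (0.926) and Trpc4ap (0.922).

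**Figure D4:**
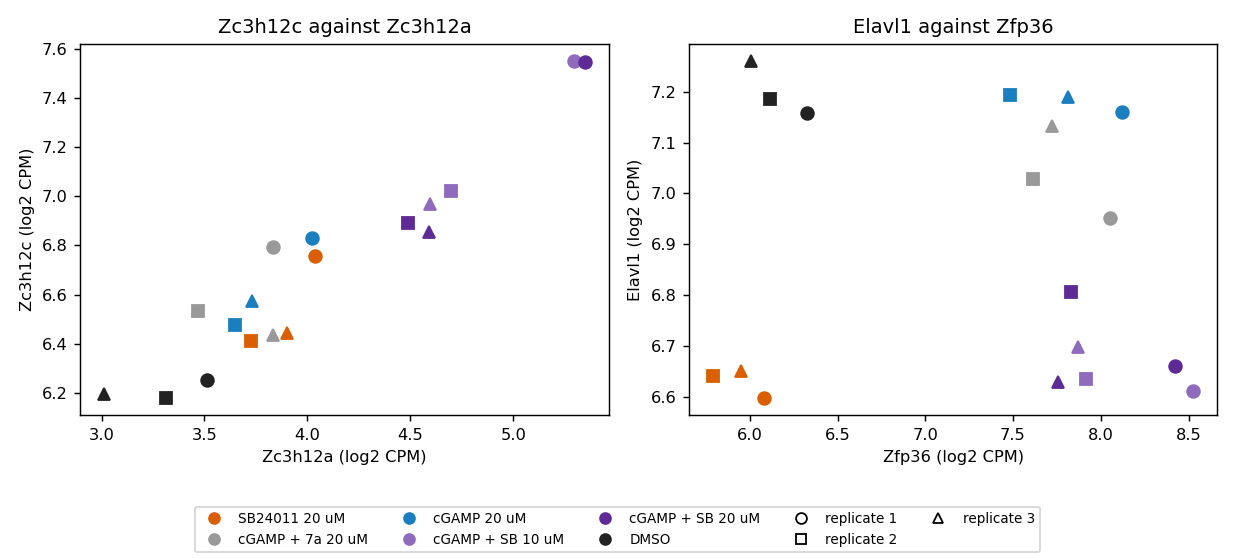
Log2 CPM of Zc3h12c against Zc3h12a (left) and of Elavl1 against Zfp36 (right), with a point for each of the 18 libraries, its color giving the group and its shape the replicate. Zc3h12a and Zc3h12c run along 1 line with replicate 1 of both combinations at its top, while Zfp36 divides libraries by cGAMP and Elavl1 divides them by SB24011.

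Of the decay machinery that tristetraprolin recruits or feeds (CCR4-NOT, PAN2-PAN3, decapping, Xrn1, exosome and Upf1), all 35 genes were tested. With cGAMP 10 were higher and 7 lower, where 15.6% of all genes were higher and 19.8% lower, with a median log2 difference of 0.01, against -0.06 over all genes. With library size alone, a setting added for the lists after the data had been seen, 8 were higher and 14 lower, median -0.12, against -0.19 over all genes. Xrn1, the main cytoplasmic 5' to 3' exonuclease, rose by 1.22 ± 0.14 and Dcp2, the decapping enzyme, by 0.96 ± 0.18 (adjusted p = 3.68e-06 and 6.35e-04). With SB24011 alone 3 were higher and 22 lower, where 20.4% of all genes were higher and 24.3% lower, and the median was -0.25, against -0.01 over all genes. Ddx6, a helicase of decapping complexes, fell by 0.75 on the log2 scale (adjusted p = 7.92e-06) and Btg1, an adaptor of the deadenylases, by 0.82 (adjusted p = 0.0232), while Dcp1b, a decapping cofactor, rose by 0.73 ± 0.10 (adjusted p = 1.49e-05). On cGAMP, 20 uM SB24011 gave 17 of the 35 lower and 5 higher (median -0.19, against 0.02 over all genes), where 20.6% of all genes were lower and 21.7% higher. At 10 uM 18 were lower and 3 higher (median -0.19, against 0.02), where 19.1% of all genes were lower and 19.9% higher. None were called with 7a. Against 7a, 14 were lower and 4 higher with 20 uM SB24011 (median -0.10, against 0.01), where 16.7% of all genes were lower and 19.7% higher.

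Of 22 other RNA-binding proteins of cytokine mRNAs, 19 were tested. Arid5a, which is known to stabilise Il6 mRNA and to oppose Regnase-1, had the largest change of the list in the next 3 comparisons. Its log2 difference was 2.15 ± 0.17 with cGAMP, 2.78 ± 0.17 with SB24011 alone and 1.58 ± 0.15 with 20 uM SB24011 on cGAMP (adjusted p = 4.94e-08, 2.47e-09 and 6.54e-07). It was the 1 gene of the list with an interaction (-1.20 ± 0.22, adjusted p = 0.0241): the change with both agents was smaller than the sum of the separate log2 changes. With cGAMP 6 of the 19 were higher, among them N4bp1 (1.00 ± 0.086) and Khnyn (0.92 ± 0.15), both kin of the Regnases by their nuclease domain, and 1 was lower, with a median of 0.03, where 15.6% of all genes were higher and 19.8% lower. With SB24011 alone 4 were higher, among them Zc3hav1 (0.96 ± 0.18), the zinc-finger antiviral protein, and 8 lower, with a median of -0.13, where 20.4% of all genes were higher and 24.3% lower. With SB24011 alone the share called higher was thus near that of all genes. The share called higher with cGAMP and that called lower with SB24011 alone were above those of all genes, a difference that was not tested.

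Of 19 genes for enzymes known to act on these proteins, 18 were tested. With cGAMP 5 were higher and 2 lower, where 15.6% of all genes were higher and 19.8% lower. With library size alone 3 were higher and 6 lower, and 1706 of all 14650 genes were higher and 5149 lower. Mapkapk2, whose kinase phosphorylates tristetraprolin and blunts its action, rose by 0.94 ± 0.11 (adjusted p = 3.19e-06), and Tbk1, the STING-associated kinase, by 0.80 ± 0.10, while Map2k6, a kinase upstream of p38, fell by 1.40 on the log2 scale (SE 0.41, adjusted p = 0.0126). With SB24011 alone 1 was higher and 7 lower, where 20.4% of all genes were higher and 24.3% lower. With library size alone it was 2 higher and 4 lower, and 3624 of all genes were higher and 2685 lower. Among the 7, Malt1, the protease that cleaves Regnase-1, fell by 0.56 (SE 0.21, adjusted p = 0.0427) and Akt1 by 0.54 (SE 0.097, adjusted p = 2.38e-04). On cGAMP 20 uM SB24011 gave 1 higher and 5 lower, where 21.7% of all genes were higher and 20.6% lower, and 7a gave none.

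**Figure D5:**
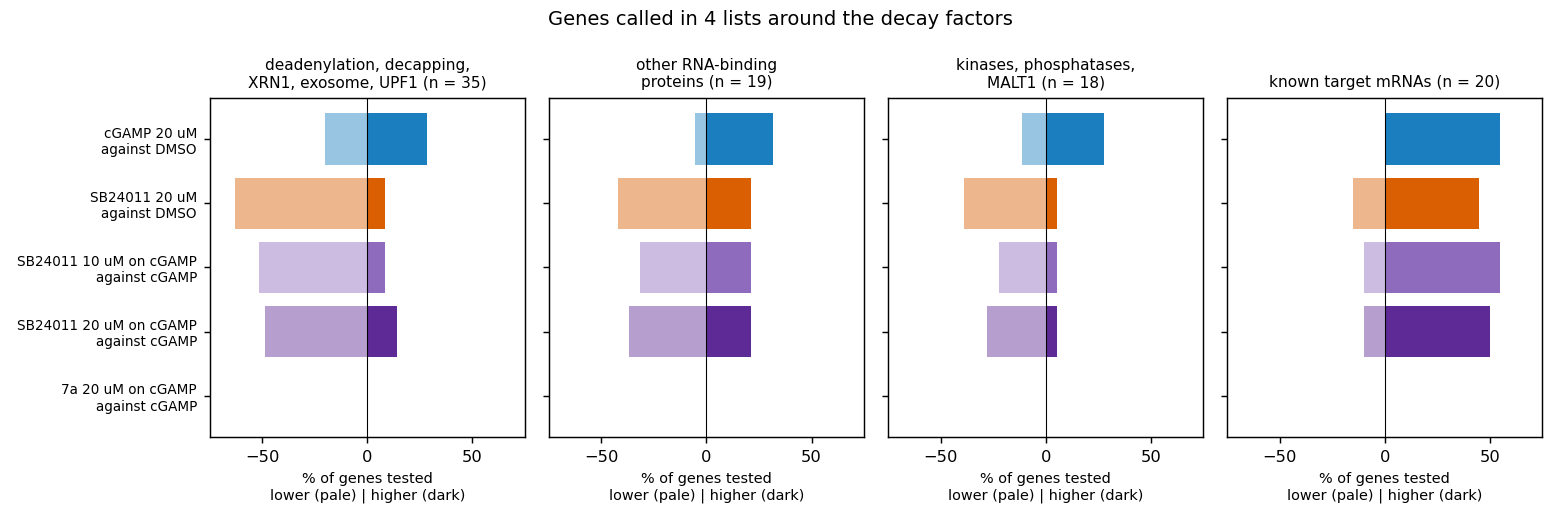
Percent of the tested genes of 4 lists called higher (dark, right of 0) and lower (pale, left of 0) in 5 comparisons, by color. With SB24011 more genes of the decay machinery are called lower than higher, more known target mRNAs are called higher than lower, and 7a on cGAMP shows no bar.

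Of 23 mRNAs known in mouse cells as targets of tristetraprolin or Regnase-1, 20 were tested, Zfp36 and Zc3h12a themselves among them. With cGAMP 11 were higher and none lower, where 15.6% of all genes were higher and 19.8% lower, with a median log2 difference of 1.07, against -0.06 over all genes. SB24011 alone gave 9 higher and 3 lower (median 0.60, against -0.01), where 20.4% of all genes were higher and 24.3% lower. On cGAMP, 20 uM SB24011 gave 10 higher and 2 lower (median 0.93, against 0.02), where 21.7% of all genes were higher and 20.6% lower. With 7a on cGAMP none were called (median 0.03, against -0.01). Tnf averaged 282 ± 13.5 CPM with cGAMP, against 71.9 ± 13.6 CPM in DMSO, and 496 ± 113 CPM with cGAMP and 20 uM SB24011 (SD, n = 3 each). Il6 had no read in DMSO and 50 over the cGAMP libraries, so that it was at least 21.3-fold higher with cGAMP when DMSO is set at a summed floor of 3 counts. With cGAMP and 20 uM SB24011 Il6 averaged 9.31 ± 4.77 CPM, against 0.331 ± 0.109 CPM with cGAMP alone (log2 difference 4.77 ± 0.48, adjusted p = 2.76e-06). The medians of this list were the same with genes absent from one group set at their lower bound. The counts called higher include genes with no read in the reference group: Il6 and Il10 in DMSO, and Il1a with cGAMP alone. These genes passed the filter on low counts only through other groups. Against a group without reads Il6, Il10 and Il1a could be called only higher. Il1b and Lcn2, called higher with SB24011 alone and at 20 uM on cGAMP, were also low in the reference groups. They averaged 0.0376 and 0.471 CPM in DMSO and 0.269 and 0.314 CPM with cGAMP, which left little room for a fall. The counts called are thus a description and not a test.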

How the data were processed

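RNA from 18 libraries of Raw264.7 cells was sequenced with a stranded mRNA kit. Per the submitters' processing notes, Trimmomatic 0.38, HISAT2 2.1.0, Bowtie2 2.3.4.1, StringTie 2.1.3b and build GRCm38 (mm10) were used. The read counter, its strand setting and its handling of multiply mapping reads: not given in the sources used here. Per the file headers, the deposited gene table holds raw counts, FPKM and TPM per library. The deposited TPM and a deposited quantile-normalized table were not used here.

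Counts were tested with edgeR 4.0.16 (R 4.3.3): filterByExpr, TMM, 1 robust quasi-likelihood model over 18 libraries with 12 residual degrees of freedom, and Benjamini-Hochberg adjustment over 14650 genes in each of 9 comparisons. Calls are at an adjusted p under 0.05. SE and 95% intervals come from that fit. A run on simulated counts checked its calls and log2 differences, not the SE or the intervals. The simulated libraries were independent, with no shift between library sets. Tests were two-sided. Levels within a gene are TMM-scaled CPM; levels between genes are the deposited FPKM. No 2 replicates agreed within sampling noise. The members and 4 lists were chosen with earlier results of these data known. Named genes were the members, up to 3 called genes per list and comparison with the largest change, and the 4 genes most correlated with each member, without those named by a clone or locus number. Alternatives were DESeq2 1.42.0 and its size factors, library size alone, other filters, limma 3.58.1 on log2(FPKM + 1) and log2(FPKM + 0.1), only the groups compared, the library set as a block, and each library or set 1 left out. The rule for pairing by library number (every same-set r over 0.1) was met for SB24011 against DMSO (0.125 to 0.178) and 7a on cGAMP (0.137 to 0.183). It was also met for cGAMP with 20 uM SB24011 against SB24011 alone (0.105 to 0.176). Elsewhere it was not met, which does not show that the libraries there are unpaired. The main model has no block for the library set.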

Additional observations from a re-analysis of the deposited data

How the results depend on the processing

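The calls of Zfp36 for cGAMP (in DMSO-treated and SB24011-treated cells), of Zc3h12a for both doses of SB24011 on cGAMP, against 7a and for cGAMP on SB24011, and of Elavl1 for every SB24011 comparison held under every alternative run. Of 900 values of single members under alternatives, 781 kept direction and side of the threshold, 65 lost the call, 19 gained it and 35 changed sign, none of these 35 in a called value. The causes were not tested. For cGAMP against DMSO, 3 members became 5 with DESeq2, with the replicate block (library set) or with only the groups compared, and 1 to 2 with single libraries left out (1 without DMSO replicate 2 or cGAMP replicate 1). With library size alone or limma at either pseudocount, 1 member was higher and 1 lower. All genes called there went from 5193 to 5230 with DESeq2, 6418 with the block and 4859 with only the groups compared. Leaving out libraries gave 4171 to 4651. For SB24011 alone 3 became 5 with the block or only the groups compared, and 2 to 3 leaving out single libraries. All genes called went from 6541 to 7811 with the block, 6873 with only the groups compared and 5625 to 5917 leaving out libraries. On cGAMP, 4 members at 20 uM became 2 to 4 leaving out libraries (2 without cGAMP replicate 3 or combination replicate 1), and 3 at 10 uM became 5 with the block and 2 to 3 leaving out libraries. All genes called at 20 uM went from 6201 to 5322 to 5892 leaving out libraries. At 10 uM they went from 5708 to 7027 with the block and 4887 to 5041 leaving out libraries. Against 7a, 5 became 3 with only the groups compared, and 3 to 5 leaving out libraries (3 without combination replicate 1 or 7a replicate 3). All genes called went from 5336 to 3828 with only the groups compared and 4446 to 5011 leaving out libraries. For cGAMP on SB24011, 5 became 3 with library size alone or limma at either pseudocount, and 3 to 5 leaving out libraries (3 without combination replicate 1). There 4008 genes became 6281 with library size alone, 6082 with limma on log2(FPKM + 1) and 3013 to 4112 leaving out libraries. For 7a on cGAMP, 0 genes became 38 with DESeq2, 8 with the block and 0 to 48 leaving out libraries. For the interaction, 54 genes became 33 with library size alone, 171 with DESeq2, 30 with limma on log2(FPKM + 0.1), 321 with the block, 29 with only the groups compared, 23 without library set 1 and 23 to 67 leaving out libraries.

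Where the pairing rule was not met, the block moved adjusted p for cGAMP to 0.00562 (Zc3h12a) and 0.00149 (Zc3h12c). For 10 uM SB24011 on cGAMP it moved adjusted p to 0.0165 (Zfp36) and 0.00864 (Zfp36l1). Each of 18 libraries correlated best with its own set (median same-set r 0.122, against -0.0612). That is a hint from the data that sets may matter in these comparisons too. Where the rule was met, the block changed no member's call beyond those given in the report. Signs changed for Elavl1 with cGAMP (0.00267 with DESeq2's size factors in edgeR, 0.00279 with DESeq2, 0.033 with only the groups compared, -0.041 to 0.0094 leaving out libraries) and with cGAMP on SB24011 (-0.10 with library size alone, -0.087 and -0.093 with limma at pseudocounts 1 and 0.1). For 7a on cGAMP they changed for Zfp36 (0.011 without library set 1, -0.17 to 0.15 leaving out libraries), Zfp36l1 (-0.022 and -0.025 with limma, -0.19 to 0.13), Zc3h12a (-0.16 to 0.031) and Zc3h12c (-0.15 to 0.069). Between the doses they changed for Zfp36l1 without library set 1 (0.016) and, leaving out libraries, for Zfp36 (-0.34 to 0.14), Zfp36l2 (-0.071 to 0.14), Zc3h12a (-0.36 to 0.21), Zc3h12c (-0.33 to 0.14) and Elavl1 (-0.0040 to 0.085). They also changed, leaving out libraries, for 20 uM SB24011 on cGAMP in Zfp36 (-0.037 to 0.38) and Zfp36l2 (-0.16 to 0.0058), against 7a in Zfp36 (-0.016 to 0.37) and for the interaction in Zc3h12c (-0.10 to 0.28).

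With 3 libraries a group and at least 410 counts per member and library, the spread between libraries rather than counting sets the width of the intervals.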
